A study of Drosophila melanogaster with 2 samples.

Results

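The genes described here encode the machinery that takes secreted and membrane proteins into the endoplasmic reticulum, folds them and carries them to and from the Golgi. They were chosen by name in the expression table: symbols starting Sec or Srp with a digit, symbols starting Spase, symbols ending COP, and Sar1, Xbp1, Pdi and Calr. The rule found 40 of the 9607 genes in the table. By role they were 6 proteins of the signal recognition particle, 4 of the translocon, 3 signal peptidase subunits, 3 folding and stress response genes, 7 COPII genes, 7 COPI subunits, 6 exocyst subunits, and 3 others (the SNAREs Sec20 and Sec22 and the Arf exchange factor Sec71). Srp54 was also caught by the name rule, but in Drosophila it is an SR-family splicing factor, whereas Srp54k encodes the signal recognition particle subunit, so Srp54 is described apart.

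Midgut epithelial cells of adult Canton S (wild type) Drosophila melanogaster females were profiled by single-cell RNA sequencing with the Chromium v3.1 kit, in which unique molecular identifiers (UMIs) count captured transcripts. The series held 2 libraries, 1 of 3-day old flies with 1473 cells and 1 of 1-day old flies with 2711 cells. All cells came from unmodified wild type females, with no treatment named in the labels and no statement of how many flies were pooled. With 1 library an age there was no replicate and no test, and a difference between ages cannot be told apart from a difference between the libraries.

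Protein secretion starts when the signal recognition particle binds a signal peptide as it leaves the ribosome and brings the ribosome to the Sec61 channel. Signal peptidase removes the peptide, chaperones such as calreticulin and protein disulfide isomerase fold the chain, and COPII vesicles carry it to the Golgi while COPI vesicles return material. In the fly gut, enteroendocrine cells make and release peptide hormones, enterocytes release digestive enzymes, and intestinal stem cells and enteroblasts renew both.

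The authors' annotation named 10 classes. The 2 enteroendocrine classes, AstC+EE and Tk+EE, held 62 cells at day 3 and 60 at day 1, and the enterocyte classes apEC and mEC held 60 and 72. The EC-like class held 134 and 380 cells, EB2 held 102 and 204, EB3 91 and 74, EB1 399 and 970, ISC2 264 and 417, and ISC1 361 and 534. Total depth was 58700717 UMIs at day 3 and 86114751 at day 1, with a median of 32121 and 25935 UMIs a cell. Median depth by class ran from 9042 UMIs in Tk+EE to 67954 in EB2 at day 3, and from 7758 in Tk+EE to 50586 in EB2 at day 1. Only 1 cell barcode was found in both libraries. The 12 enteroendocrine markers summed to between 306 and 1534 counts per 10000 in AstC+EE and Tk+EE and to at most 2.29 in each other class. The 12 enterocyte markers summed to 1122 at day 3 and 886 at day 1 in apEC and to 58.1 and 67.4 in mEC. The EC-like class went against its name on these lists: its enterocyte markers summed to 2.46 and 8.10, and its 7 progenitor markers to 33.5 and 35.1, close to the 35.0 and 36.8 of ISC2. Among the EB and ISC classes the progenitor markers were lowest in EB2, at 8.47 and 7.77, against 22.6 and 21.8 in ISC1.

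A level here is the mean over the cells of a class of the gene's depth-corrected count per 10000 of the cell's depth-corrected total. Of the 40 genes, 33 passed a mean of 0.1 per 10000 over the 10 classes and both libraries, a filter that 4735 of all genes passed. The 7 under it were Sec20, Sec71 and the exocyst subunits Sec3, Sec5, Sec6, Sec10 and Sec15. Just inside the filter was Sec24AB, with a mean of 0.137 per 10000, and just outside it was Sec3, with 0.0935. The exocyst tethers vesicles to the plasma membrane, and Sec8 was its 1 subunit past the filter.

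The highest levels of most secretory genes lay in 3 classes, though how many depended on scaling and depth. Per 10000 of the total, for 33 of the 33 genes past the filter, the highest class was EB2, AstC+EE or Tk+EE in both libraries, against 49.8% of all genes past the filter. EB2 was highest in both libraries for 15 of the 33, against 17.4% of all genes. AstC+EE was highest in both for 4, against 10.9%, and Tk+EE for 4, against 8.6%. Per 10000 of counts outside ribosomal protein genes, 1 of the 3 classes was highest in both libraries for 27 of the 33, against 37.5% of all genes, and the exceptions were Srp19, Xbp1, Sar1, beta'COP, Sec8 and Srp54. In cells of 5000 to 25000 UMIs it was so for 21 of the 33, against 35.7% of all genes, but EB2 then had only 4 cells at day 3 and 15 at day 1. Over all 40 genes the summed level at day 3 was 57.2 per 10000 in AstC+EE, 53.6 in Tk+EE, 56.2 in EB2 and 38.5 in ISC1. At day 1 it was 54.4 in AstC+EE, 56.5 in Tk+EE, 58.1 in EB2 and 39.6 in ISC1. The other 6 classes lay at 30.5 or lower at day 3 and between 24.4 and 35.0 at day 1. The sum at day 3 outside ribosomal protein genes was 92.6 in AstC+EE, 74.4 in Tk+EE, 103 in EB2 and 78.4 in ISC1, and at day 1 it was 95.7, 80.3, 108.2 and 82.8, so Tk+EE was then below ISC1. On the total, the folding and stress response genes Calr, Pdi and Xbp1 stood at 23.0 per 10000 in enteroendocrine cells at day 3 and 21.7 at day 1, and the 7 COPI subunits at 7.09 and 6.38 in AstC+EE.

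**Figure D1:**
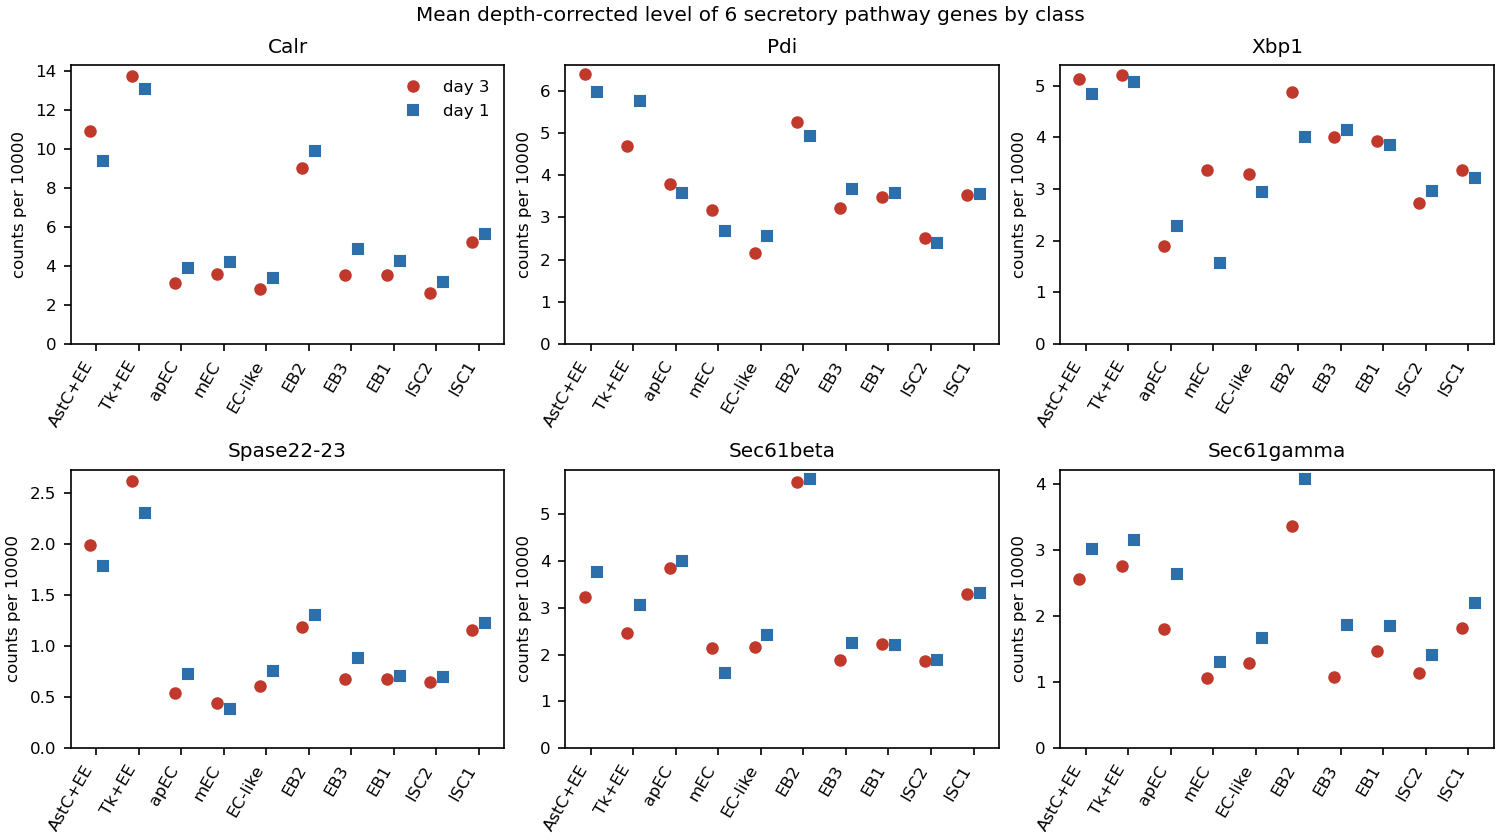
Level of Calr, Pdi, Xbp1, Spase22-23, Sec61beta and Sec61gamma (vertical axes, depth-corrected counts per 10000) in each of the 10 classes, with day 3 as circles and day 1 as squares, 1 library each and no error bar. Calr stands at 13.7 and 13.1 in Tk+EE, at 9.04 and 9.91 in EB2 and at 5.23 and 5.63 in ISC1, while Sec61beta and Sec61gamma are highest in EB2 in both libraries.

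Enteroendocrine cells were set against ISC1, the stem cell class with the most cells, within each library. No secretory gene reached 2-fold in both libraries, the size used to call a class difference, whereas 12.4% of all genes past the filter did so in 1 direction or the other. At any size, 20 of the 33 genes were higher in enteroendocrine cells in both libraries, where 44.1% of all genes were. Per 10000 of counts outside ribosomal protein genes 11 were so, where 29% of all genes were. On the total, 6 were lower in both libraries and 7 had opposite signs. The median difference of the 33 genes was 0.22 at day 3 and 0.21 at day 1 on the log2 scale with 0.1 added to each level, against 0.03 and 0.05 over all genes. Among the higher genes on either scaling were 3 of 3 signal peptidase subunits and 3 of 3 folding and stress response genes. On the total, 2 of 4 translocon genes and 3 of 7 COPII genes were higher in both libraries. Ribosomal protein genes took a median of 25.3% of a cell's counts at day 3 and 28.6% at day 1 in enteroendocrine cells, against 51.3% and 52.8% in ISC1. Outside ribosomal protein genes, 17 of the 33 were lower in both libraries, where 55.8% of all genes were. The medians were -0.18 and -0.10, against -0.29 and -0.21 over all genes.

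Calr encodes calreticulin, a calcium-binding chaperone of newly made glycoproteins. It had 12.3 counts per 10000 in enteroendocrine cells at day 3, against 5.23 in ISC1, and 10.9 at day 1, against 5.63 in ISC1. In log2 terms the differences were 1.22 and 0.94, so day 3 was past 2-fold and day 1 was not. Between the enteroendocrine classes, Tk+EE had 13.7 and 13.1 and AstC+EE 10.9 and 9.40, both above ISC1 in both libraries. In UMI counts rebuilt for cells up to the median depth, Calr had 10.6 per 10000 in the 59 enteroendocrine cells at day 3 (95% Poisson interval 9.84 to 11.5), against 4.79 in ISC1 (4.53 to 5.07). At day 1 it had 9.90 in 55 enteroendocrine cells (9.06 to 10.8), against 5.27 in ISC1 (5.08 to 5.46). The intervals, which cover counting error only, did not overlap in either library. The differences were 0.78 and 0.55 outside ribosomal protein genes. As means over cells, Calr was past 2-fold in both libraries in cells of 5000 to 25000 UMIs and in the rebuilt counts. The gene lies on chromosome arm 3R at 9628691 to 9630851 on the minus strand in the BDGP6.54 annotation.

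Signal peptidase is the membrane enzyme that cuts signal peptides from proteins entering the endoplasmic reticulum. Spase12 had 2.50 per 10000 in enteroendocrine cells at day 3, against 1.20 in ISC1, and 2.25 at day 1, against 1.11 in ISC1. Spase22-23 had 1.99 in AstC+EE and 2.62 in Tk+EE at day 3, against 1.16 in ISC1, and 1.78 and 2.31 at day 1, against 1.23 in ISC1. Its enterocyte levels were the lowest of the 10 classes at day 3, with 0.543 in apEC and 0.445 in mEC. Spase25 was highest in AstC+EE in both libraries, with 2.42 at day 3 and 2.63 at day 1, against 1.18 and 1.42 in ISC1. The differences from ISC1 were 0.99 and 0.96 for Spase12, 0.92 and 0.66 for Spase22-23 and 0.85 and 0.66 for Spase25. All 3 stayed above ISC1 in both libraries outside ribosomal protein genes, at 0.58 and 0.57, 0.50 and 0.30, and 0.48 and 0.34. Summed, the 3 subunits stood at 6.94 in AstC+EE and 7.05 in Tk+EE at day 3, against 3.55 in ISC1, and at 6.13 and 7.19 at day 1, against 3.76 in ISC1. Spase22-23 shares exon sequence on the same strand with a long noncoding RNA gene in the annotation, so its counts are less certain than those of Spase12 and Spase25.

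Pdi encodes protein disulfide isomerase, which forms and rearranges disulfide bonds. Its level was 5.56 per 10000 in enteroendocrine cells at day 3, against 3.53 in ISC1, and 5.88 at day 1, against 3.54 in ISC1. Xbp1 encodes a transcription factor of the unfolded protein response, and these counts do not separate its spliced and unspliced messages. It had 5.17 in enteroendocrine cells at day 3, against 3.37 in ISC1, and 4.93 at day 1, against 3.21 in ISC1. Both genes were higher in AstC+EE and in Tk+EE than in ISC1 in both libraries, with differences for the joined classes of 0.64 and 0.71 for Pdi and 0.60 and 0.60 for Xbp1. These differences were smaller outside ribosomal protein genes, at 0.24 and 0.34 for Pdi and 0.18 and 0.20 for Xbp1.

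In the translocon, Sec61gamma was 0.52 and 0.46 above ISC1 in enteroendocrine cells, and 0.06 and 0.10 above it outside ribosomal protein genes. Sec61alpha, the channel itself, was at 0.15 and 0.46, but at -0.22 and 0.21 outside ribosomal protein genes. Sec61beta, a small channel subunit, was at -0.20 and 0.07, or -0.60 and -0.25 outside ribosomal protein genes, and Sec63, which couples the channel to luminal chaperones, at 0.03 and -0.22, or -0.34 and -0.51. The subunits of the Sec61 channel thus differed from ISC1 to unlike degrees. Among signal recognition particle proteins, Srp14 was at 0.60 and 0.21, which became 0.23 and -0.15 outside ribosomal protein genes, and Srp72 was lower at -0.14 and -0.37. In the COPII coat, Sec16, which marks the exit sites of the endoplasmic reticulum, was at 0.70 and 0.73, with levels at day 3 of 0.552 in AstC+EE and 0.361 in Tk+EE, against 0.244 in ISC1, and at day 1 of 0.337 and 0.376, against 0.172 in ISC1. Sec24CD, a cargo adaptor, was lower in both libraries, at -0.11 and -0.32. In the COPI coat epsilonCOP was 0.46 and 0.40 above ISC1, or 0.08 and 0.10 outside ribosomal protein genes. Its partner alphaCOP was at -0.12 and -0.12, or -0.49 and -0.37 outside ribosomal protein genes. Sec8 of the exocyst was lower in enteroendocrine cells, at -0.41 and -0.61, but shares exon sequence on the same strand with CG2082.

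Of the wider secretory pathway, 81 further genes were listed, 72 were in the table and 63 passed the filter. In enteroendocrine cells 46 of these 63 were higher than in ISC1 in both libraries, where 44.1% of all genes were, and 8 were lower. Outside ribosomal protein genes 27 were higher and 20 lower, where 29% and 55.8% of all genes were. The medians were 0.38 and 0.36 on the total and -0.01 and 0.11 outside ribosomal protein genes. Past 2-fold in both libraries were 5 of the 63, all higher, where 478 of the 4735 genes past the filter were higher by that rule. Of the 5, Rab2 alone was past it on the other scaling. Rab2, a small GTPase of the Golgi, had 12.8 per 10000 in enteroendocrine cells at day 3, against 2.32 in ISC1, and 9.25 at day 1, against 2.45 in ISC1. Gp93, an Hsp90-type chaperone of the endoplasmic reticulum, was 1.12 and 1.18 above ISC1. Ykt6, a SNARE, was at 1.22 and 1.18, AP-1sigma, a clathrin adaptor subunit, at 1.05 and 1.09, and p24-1, a cargo receptor family member, at 1.04 and 1.01.

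**Figure D2:**
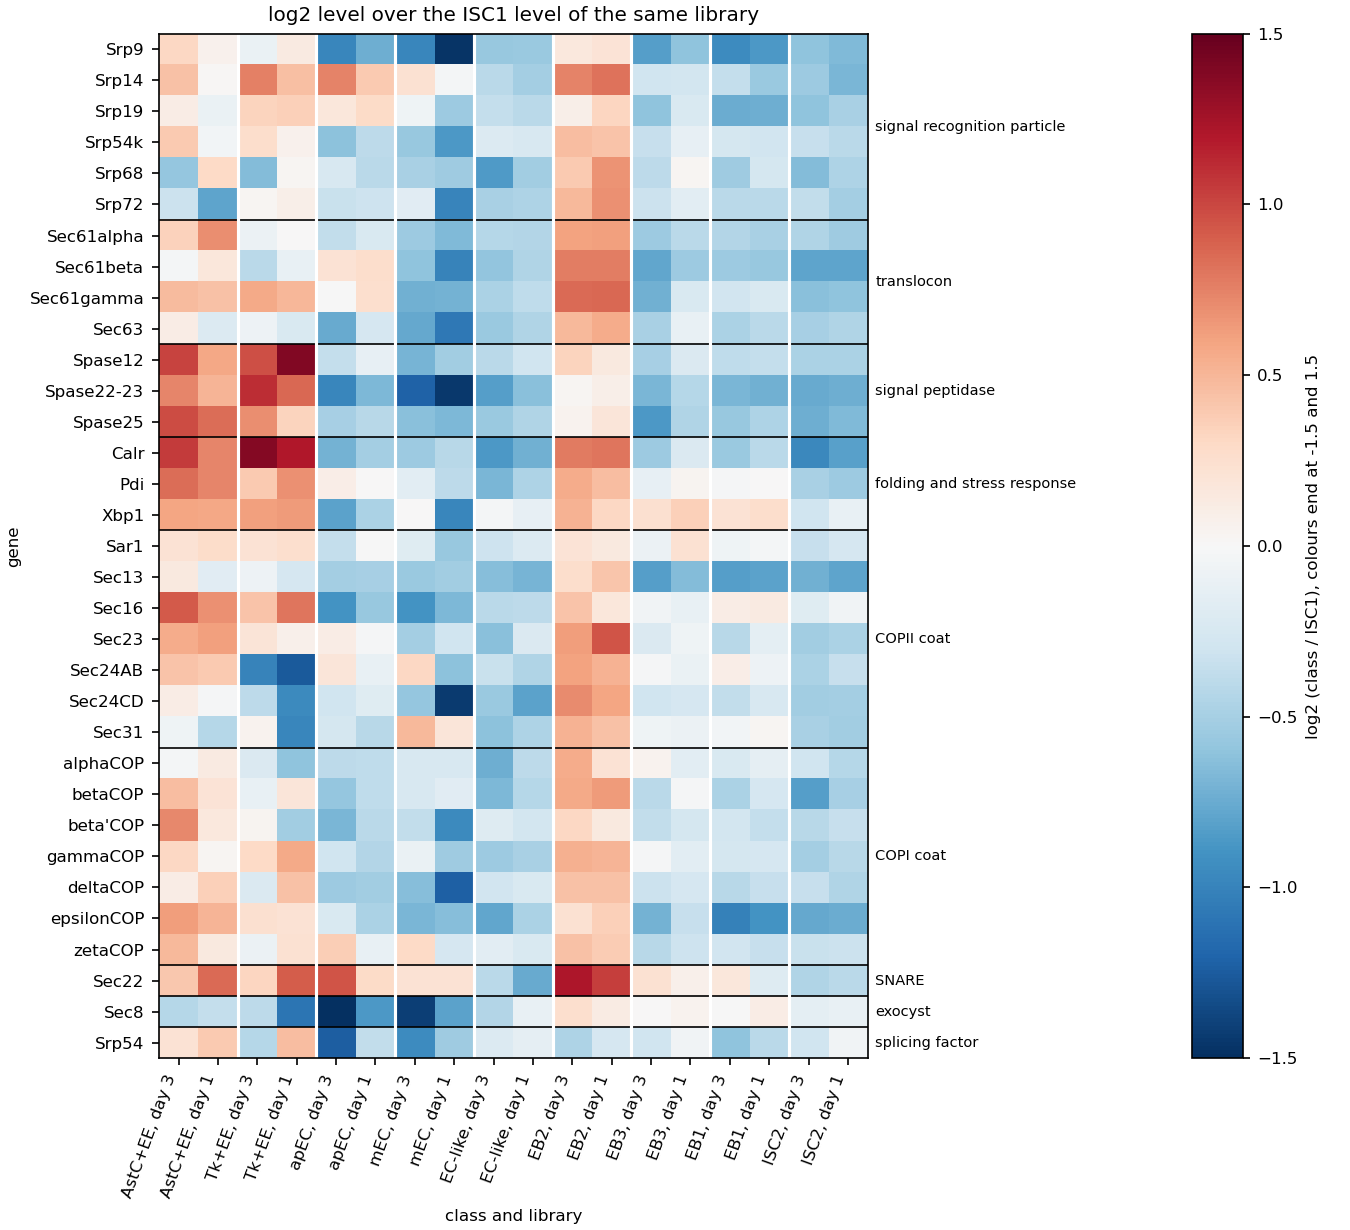
Log2 difference of each class from ISC1 of the same library (0.1 per 10000 added to each level) for the 33 genes past the filter, in rows by role, with 9 classes in columns and day 3 left of day 1. Red is above ISC1 and blue below it, with colours ending at -1.5 and 1.5. EB2 is red for all genes but Srp54, EC-like and ISC2 are blue throughout, and the enteroendocrine columns are reddest in the signal peptidase and folding rows. Outside ribosomal protein genes (not drawn) 11 and not 20 of the 33 genes are above ISC1 in both libraries in enteroendocrine cells, 27 in EB2, and 29 below it in ISC2. The shares of all genes on that scaling are 29%, 41% and 53.5%, in the same order.

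EB2 was compared with ISC1 after the levels above had been seen. In EB2, 32 of the 33 genes were higher than in ISC1 in both libraries, where 49.6% of all genes were, and the exception was Srp54, the splicing factor, at -0.46 and -0.25. The median difference was 0.49 at day 3 and 0.44 at day 1, against 0.05 and 0.09 over all genes. Sec22 was the 1 gene past 2-fold in both libraries, with 3.84% of all genes higher by that rule. Per 10000 of counts outside ribosomal protein genes, 27 of the 33 were higher in both libraries, where 41% of all genes were. The medians were 0.37 and 0.30, against -0.04 and 0.00 over all genes.

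Sec22, a SNARE of traffic between the endoplasmic reticulum and the Golgi, had 0.580 per 10000 in EB2 at day 3, against 0.194 in ISC1, and 0.554 at day 1, against 0.220 in ISC1. The differences were 1.21 and 1.03. The day 1 difference was smaller without the deeper cells. Rebuilt UMIs pooled over cells up to the median depth gave 0.284 in 24 EB2 cells at day 1 (0.147 to 0.496). In ISC1 they gave 0.213 (0.177 to 0.255). At day 3 the pooled level was 0.548 from 5 UMIs in 6 EB2 cells (0.178 to 1.28), against 0.153 in ISC1 (0.109 to 0.210). Taken as means over cells and not pooled, the rebuilt counts gave a log2 difference of 0.13 at day 1. With the correction inverted in cells of all depths the Sec22 differences were 1.07 and 0.91, so the call at 2-fold was lost. Sec22 lies on the X chromosome at 806076 to 808200 on the plus strand.

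The translocon genes together had a summed level of 13.2 per 10000 in EB2 at day 3, against 7.86 in ISC1, and 13.9 at day 1, against 8.15 in ISC1. Sec61beta had 5.69 in EB2 at day 3, against 3.30 in ISC1, and 5.75 at day 1, against 3.32 in ISC1. Sec61gamma had 3.37 at day 3, against 1.83 in ISC1, and 4.07 at day 1, against 2.20 in ISC1. Sec61alpha was 0.60 and 0.62 above ISC1, and Sec63 0.49 and 0.55. Thus 4 of 4 translocon genes were higher in EB2, with medians of 0.68 and 0.70.

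Calr stood at 9.04 in EB2 at day 3, against 5.23 in ISC1, and at 9.91 at day 1, against 5.63 in ISC1. Its rebuilt UMI counts per 10000 in EB2 cells up to the median depth were 10.9 (8.91 to 13.3) from 6 cells at day 3 and 9.54 (8.63 to 10.5) from 24 cells at day 1. The EB2 intervals did not overlap those of ISC1 given above. Among the signal recognition particle proteins Srp14 was 0.74 and 0.81 above ISC1 and Srp68 0.39 and 0.67. Sec23, which activates the Sar1 GTPase in the COPII coat, was at 0.63 and 0.94, and Sar1 itself at 0.20 and 0.15, or 0.03 and -0.01 outside ribosomal protein genes. In the COPI coat betaCOP was at 0.57 and 0.64 and beta'COP at 0.31 and 0.15.

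Of the roles with more than 1 gene past the filter, signal peptidase had the smallest median difference between EB2 and ISC1. Spase22-23 was at 0.03 and 0.09, Spase25 at 0.05 and 0.18 and Spase12 at 0.34 and 0.15. Their median was 0.05 at day 3 and 0.15 at day 1, where the enteroendocrine medians were 0.92 and 0.66. The Spase22-23 values in EB2 were -0.11 and -0.05 outside ribosomal protein genes. On the total, at similar sums over all 40 genes, different members were high in EB2 and in enteroendocrine cells. The translocon sum was 13.2 in EB2, 9.20 in AstC+EE and 7.79 in Tk+EE at day 3, and the signal peptidase sum 3.96 in EB2, 6.94 in AstC+EE and 7.05 in Tk+EE. At day 1 the translocon sums were 13.9, 10.8 and 8.77 and the signal peptidase sums 4.18, 6.13 and 7.19 in the same classes. Of the 63 wider pathway genes 56 were higher in EB2 in both libraries, where 49.6% of all genes were. Bet1, a SNARE, was the 1 past 2-fold, at 1.09 and 1.11, where 3.84% of all genes were higher by that rule.

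EB2 cells were the deepest of the 10 classes, and enteroendocrine cells the shallowest, which bears on every level set between them. Among cells up to the median depth, 23 of the 33 genes were higher in EB2 in both libraries, with medians of 0.56 and 0.44, from 6 and 24 cells. With the correction inverted in cells of all depths, 32 of 33 were higher and the medians were 0.47 and 0.43. Only secretory pathway genes were rebuilt or inverted, so no share of all genes can be set beside either count. Whether the other genes moved alike in these settings is therefore not known.

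**Figure D3:**
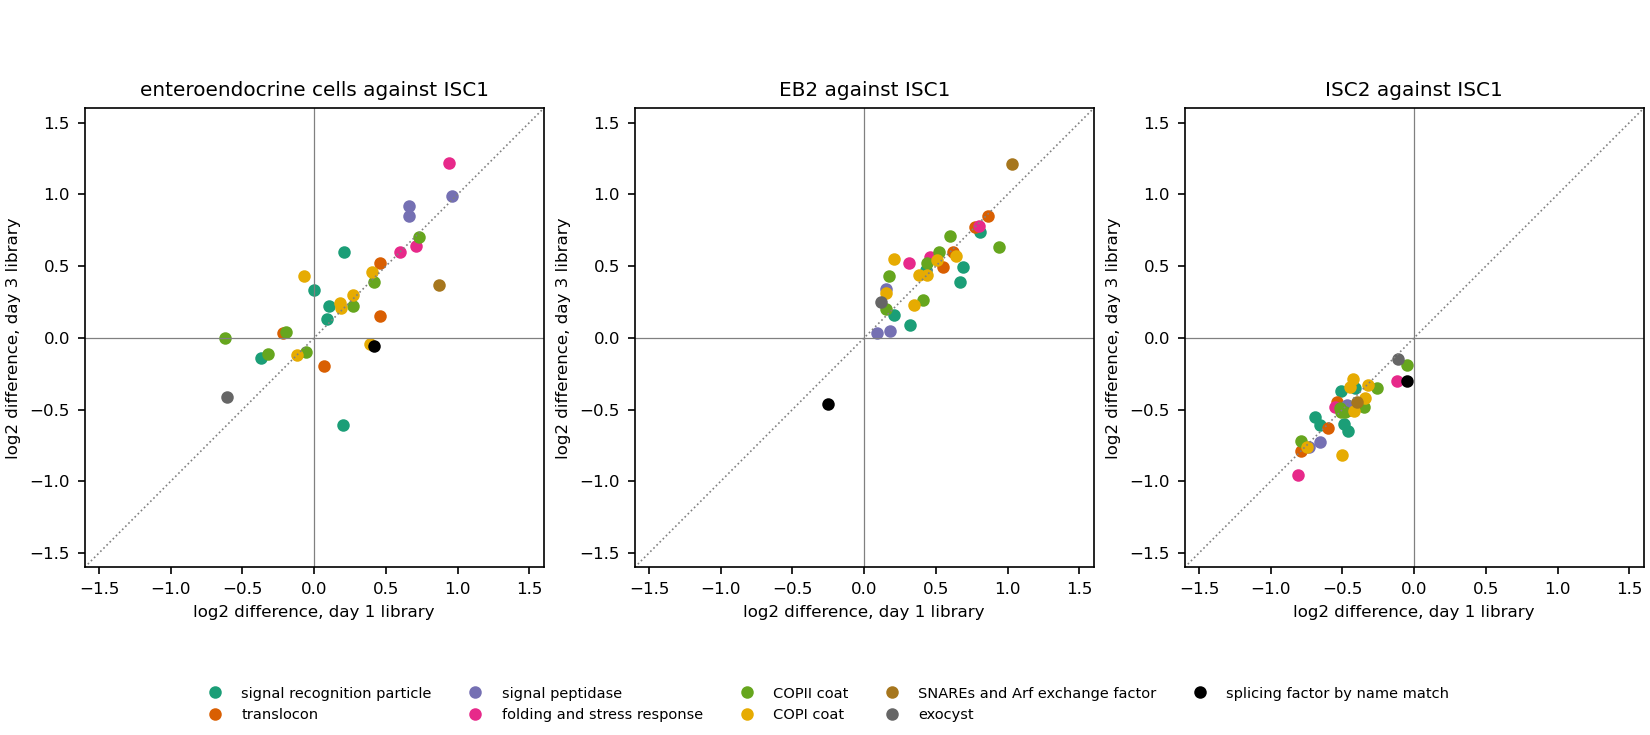
Log2 difference from ISC1 at day 3 (vertical axes) against that at day 1 (horizontal axes) for the 33 genes past the filter in enteroendocrine cells, EB2 and ISC2, coloured by role; 1 point is 1 gene and the dotted line marks equal values. Calr and the 3 signal peptidase subunits lie farthest up in enteroendocrine cells, Sec22 and Sec61gamma farthest up in EB2, and 33 of 33 genes lie below 0 in ISC2 (29 outside ribosomal protein genes).

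The ISC2 class is the other stem cell class of the annotation. All 33 genes past the filter were lower in ISC2 than in ISC1 in both libraries, where 65.7% of all genes were. Their median was -0.49 at day 3 and -0.48 at day 1, against -0.22 and -0.21 over all genes, and none reached 2-fold in both, by which rule 4.77% of all genes were called. Calr had 2.63 per 10000 in ISC2 at day 3, against 5.23 in ISC1, and 3.17 at day 1, against 5.63 in ISC1. Its differences of -0.96 and -0.81 were the largest of the folding genes, and Xbp1 at -0.30 and -0.12 the smallest. Sec61beta had 1.87 and 1.89 in ISC2, against 3.30 and 3.32 in ISC1, a difference of -0.79 in both libraries.

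Each role with more than 1 gene past the filter had all its genes lower in ISC2. Medians were -0.57 and -0.50 for the signal recognition particle, -0.57 and -0.57 for the translocon, -0.73 and -0.66 for signal peptidase, -0.49 and -0.48 for COPII and -0.42 and -0.43 for COPI. Sec13, a subunit of the outer COPII cage, was at -0.72 and -0.79, and epsilonCOP at -0.76 and -0.75. Sec16 differed least among COPII genes, at -0.19 and -0.05, and was at -0.06 and 0.08 outside ribosomal protein genes. Of the wider pathway 56 of 63 were lower in both libraries, where 65.7% of all genes were. By the 2-fold rule 211 of the 4735 genes past the filter were lower, and of the wider pathway 4 were, with none higher. These were Cnx99A, which encodes calnexin, at -1.43 and -1.26, Gp93 at -1.21 and -1.17, and the disulfide isomerase family members CaBP1 at -1.18 and -1.05 and ERp60 at -1.05 and -1.18, and outside ribosomal protein genes Cnx99A and Gp93 stayed past 2-fold. Outside ribosomal protein genes 29 of the 33 were lower in both libraries, where 53.5% of all genes were. The medians were -0.42 and -0.34, against -0.12 and -0.11 over all genes, and Xbp1 was at -0.09 and 0.09.

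In the EC-like class all 33 genes past the filter were again lower than in ISC1 in both libraries, where 67.8% of all genes were. The medians were -0.48 and -0.45, against -0.34 and -0.26 over all genes, and none reached 2-fold in both, against 5.28% of all genes. Calr had 2.83 per 10000 in EC-like cells at day 3, against 5.23 in ISC1, and 3.37 at day 1, against 5.63 in ISC1. Spase22-23 was at -0.82 and -0.63 and Sec24CD at -0.56 and -0.81. Xbp1 was close to ISC1, with 3.30 in EC-like cells at day 3, against 3.37 in ISC1, and 2.93 at day 1, against 3.21 in ISC1. By the 2-fold rule 220 of the 4735 genes past the filter were lower, and of the 63 wider pathway genes 3 were. These were ERp60 at -1.35 and -1.19, Gp93 at -1.01 and -1.04, and Grasp65, a Golgi stacking protein, at -1.03 and -1.06. Gp93 was not past 2-fold outside ribosomal protein genes. EC-like cells had a median of 15186 UMIs at day 3 and 12438 at day 1, below ISC1, and 81 of the 380 day 1 cells were in the authors' cluster 6, which held no EC-like cell at day 3. In UMI counts rebuilt for cells up to the median depth 31 of the 33 were lower in both libraries, a setting without a share of all genes. Outside ribosomal protein genes 30 were, where 58.2% of all genes were, with Xbp1 then at 0.17 and 0.03.

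In enterocytes, apEC and mEC joined, 26 of the 33 genes were lower than in ISC1 in both libraries, 3 were higher and 4 had opposite signs, where 66.5% of all genes were lower. The median was -0.40 at day 3 and -0.45 at day 1, against -0.66 and -0.58 over all genes. None reached 2-fold in both libraries, by which 40.9% of all genes were called. The difference changed with the cells used. In cells of 5000 to 25000 UMIs 12 of the 33 were lower in both libraries, with medians of 0.02 and -0.18. That window kept 15 apEC and 10 mEC cells at day 3 and 17 and 8 at day 1, so class shares moved with depth. In UMI counts rebuilt for cells up to the median depth 17 were lower, with medians of -0.07 and -0.18. No share of all genes is given for either setting, and the part of depth was not tested. In each of these settings Sec22 was the 1 gene past 2-fold, and it was higher in enterocytes. The genes higher in both were Srp14 at 0.57 and 0.24, Sec22 at 0.71 and 0.26 and Srp19 at 0.09 and 0.01, but none of these was higher in both outside ribosomal protein genes, at 0.02 and -0.33, 0.35 and -0.19, and -0.41 and -0.55. Srp9, which pairs with Srp14 in the signal recognition particle, was at -0.98 and -0.99. Srp9 had 0.440 per 10000 in apEC and 0.437 in mEC at day 3, against 0.962 in ISC1, and 0.599 and 0.320 at day 1, against 1.06 in ISC1. Srp14 had 0.838 in apEC and 0.559 in mEC at day 3, against 0.461 in ISC1, and 0.835 and 0.600 at day 1, against 0.613 in ISC1. On the total the partners lay on opposite sides of ISC1, except that Srp14 in mEC at day 1 was just under the ISC1 level.

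Sec61beta differed between the enterocyte classes, with 3.85 in apEC and 2.14 in mEC at day 3, against 3.30 in ISC1, and 4.002 in apEC and 1.61 in mEC at day 1, against 3.32 in ISC1. The enterocyte values of Spase22-23 were -1.06 and -0.94, of Sec16 -0.90 and -0.61 and of Sec8 -1.47 and -0.83. The wider pathway had 5 of 63 genes past 2-fold in enterocytes, all lower, where 1344 of the 4735 genes past the filter were lower by that rule. Outside ribosomal protein genes 26 of the 63 were past it, all lower, and the share of all genes past it on that scaling is not given here. Stt3A, the catalytic subunit of an oligosaccharyltransferase, was at -1.88 and -1.94, and Hsc70-3, the BiP chaperone, at -1.62 and -1.43. ERp60 was at -1.53 and -1.38, crc, a stress response transcription factor of the ATF4 type, at -1.28 and -1.14, and Arf79F, the Arf1 GTPase, at -1.08 and -1.15. Ribosomal protein genes took a median of 23.0% and 25.2% of enterocyte counts. Outside them 31 of the 33 secretory genes were lower in both libraries, where 76.2% of all genes were. The medians were -0.95 and -1.01, against -1.20 and -1.12 over all genes. Of the 33, 12 were past 2-fold and lower, and the share of all genes past it on that scaling is not given here.

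The joined enteroblast classes gave 23 of the 33 genes lower than ISC1 in both libraries and 7 higher, where 54.6% of all genes were lower. The medians were -0.17 and -0.13, against -0.09 and -0.10 over all genes, and none reached 2-fold, against 4.29%. The classes within this mean differed in sign. EB1, which held most enteroblast cells, had 26 genes lower and 2 higher, where 59.3% and 29% of all genes were. Its medians were -0.38 and -0.35, against -0.17 and -0.16 over all genes. EB3 had 26 lower and 3 higher, where 49.7% and 30.8% of all genes were. The EB3 medians were -0.35 and -0.16, against -0.11 and -0.05 over all genes. EB2 had 32 higher, where 49.6% of all genes were. On the other scaling, outside ribosomal protein genes, 23 were lower in EB1 and 21 in EB3, for which no share of all genes is given here. On it 27 were higher in EB2, where 41% of all genes were. With equal weight for the 3 classes, 11 genes were lower in both libraries. Xbp1 was higher in EB1 as well as in EB2 and EB3, with 3.93 per 10000 in EB1, 4.88 in EB2 and 4.001 in EB3 at day 3, against 3.37 in ISC1, and 3.86, 4.001 and 4.15 at day 1, against 3.21 in ISC1. epsilonCOP had 0.415 and 0.428 in EB1, against 0.938 and 0.886 in ISC1. Sec13 in EB1 had 0.730 and 0.845, against 1.37 and 1.55 in ISC1.

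AstC+EE and Tk+EE are enteroendocrine cells that make different peptide hormones. Between them 14 of the 33 genes were higher in AstC+EE in both libraries, 7 lower and 12 of opposite signs, where 46% of all genes were higher in both. The medians were 0.18 and 0.01, against 0.20 and 0.14 over all genes. Sec24AB, a COPII cargo adaptor, was the 1 gene past 2-fold in both, higher in AstC+EE, as were 4.52% of all genes. Sec24AB had 0.233 per 10000 in AstC+EE at day 3, against 0.0245 in Tk+EE, and 0.214 at day 1 in AstC+EE, against 0 in Tk+EE. The differences of 1.42 and 1.65 depend on the value added to each level. Cells up to the median depth were 29 of 32 in AstC+EE and 30 of 30 in Tk+EE at day 3, and 32 of 36 and 23 of 24 at day 1. Their rebuilt counts were 9 UMIs in AstC+EE and 2 in Tk+EE at day 3, and 8 and 0 at day 1. A count of 0 among the 186168 UMIs of these Tk+EE cells at day 1 allows up to 0.161 per 10000, taking 3 UMIs as the floor. The contrast thus rests on few molecules.

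Other members that held their direction between these classes were Sec24CD, at 0.50 and 0.94, beta'COP, at 0.68 and 0.68, Sec61alpha, at 0.43 and 0.69, and Spase25, at 0.28 and 0.51, all higher in AstC+EE. Calr at -0.33 and -0.47, Srp14 at -0.32 and -0.44 and Srp72 at -0.35 and -0.88 were lower in AstC+EE. The share of ribosomal protein genes was a median of 30.9% in AstC+EE at day 3 and 47.9% at day 1, against 22.6% and 24.1% in Tk+EE. Outside ribosomal protein genes 26 of the 33 were higher in AstC+EE in both libraries, where 60.3% of all genes were. The medians were 0.41 and 0.28, against 0.43 and 0.40 over all genes.

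Across the 20 class means (10 classes in 2 libraries), subunits of some complexes varied together. Pearson's r of log2 levels was 0.86 to 0.94 over the 3 pairs of signal peptidase subunits, with a median of 0.90. The median was 0.82 over the 6 translocon pairs, 0.71 over the 21 COPI pairs, 0.58 over the 15 signal recognition particle pairs and 0.46 over the 21 COPII pairs. Pairs of different roles had a median of 0.62 and ran from -0.41 to 0.93. The COPII pairs ran from -0.08 to 0.85. Mean levels were low for Sec24AB (0.137 per 10000), Sec16 (0.221), Sec31 (0.232) and Sec24CD (0.268), where the signal peptidase subunits had 1.07 or more. The part of counting error in the lower values was not tested, so they do not show whether the coat varied as 1 unit. Spase12 and Spase22-23 were the closest pair of all, at 0.94. These values are a description over 20 points that share 2 libraries, cells of unequal depth and the same totals.

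Day 3 was set against day 1 within cell groups, with a difference called at 1.5-fold. In progenitors, taken as the mean of ISC1, ISC2, EB1, EB2 and EB3, no secretory gene was called, where 2.03% of all genes were. The median was -0.04, and 21 of the 33 genes were lower at day 3, where 50.6% of all genes were. In EC-like cells none was called, where 3.65% of all genes were, the median was -0.14, against -0.06 over all genes, and 25 of the 33 were lower, where 60.4% of all genes were. In enteroendocrine cells 2 genes were called, both lower at day 3, as were 4.63% of all genes. The median there was 0.04, against 0.01 over all genes, with 20 of the 33 higher at day 3, where 50.9% of all genes were. Outside ribosomal protein genes 13 of the 33 were higher, where 1966 of the 4735 genes past the filter were. The median on that scaling was -0.04, against -0.07 over all genes. In enterocytes 1 gene was called, higher at day 3, as were 5.64% of all genes. Its median was -0.01, with 18 of the 33 lower, where 53.8% of all genes were.

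The genes called in enteroendocrine cells were Srp68 and Sec22. Srp68, a structural protein of the signal recognition particle, had 0.236 per 10000 in enteroendocrine cells at day 3, against 0.511 at day 1, a difference of -0.86. Both classes showed it, with 0.243 at day 3 against 0.557 at day 1 in AstC+EE and 0.229 against 0.442 in Tk+EE. The rebuilt counts were 10 UMIs in 59 cells at day 3, or 0.163 per 10000 (0.0779 to 0.299), against 25 UMIs in 55 cells at day 1, or 0.488 (0.316 to 0.721), and the counting intervals did not overlap. In ISC1, Srp68 had 0.415 at day 3, against 0.432 at day 1. Sec22 had 0.279 in enteroendocrine cells at day 3, against 0.484 at day 1, a difference of -0.63, but its rebuilt intervals overlapped (0.211 to 0.522, against 0.379 to 0.813). Sec24AB, called in enterocytes, had 0.192 at day 3, against 0.0944 at day 1, a difference of 0.59 that lies at the 1.5-fold limit. The rebuilt counts of Sec24AB cover only the enterocytes up to the median depth, 27 of 60 at day 3 and 29 of 72 at day 1. In these cells there were 9 UMIs at day 3 and 6 at day 1. The call was lost without the highest cell of the gene (0.50), in summed counts (0.57), in cells of 5000 to 25000 UMIs (0.43) and in rebuilt UMI counts (0.53).

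Some small differences had 1 sign in nearly every class. Sec61gamma was lower at day 3 in 10 of 10 classes, with a median of -0.28 and a range of -0.74 to -0.19. In ISC1 it had 1.83 per 10000 at day 3, against 2.20 at day 1, in enteroendocrine cells 2.66 against 3.08, and in enterocytes 1.54 against 2.10. Srp68 and Spase25 were lower in 9 of 10 classes. These 3 of the 33 genes compare with 11.6% of all genes lower in at least 9 classes. Outside ribosomal protein genes 7 of the 33 were, against 13.9% of all genes: Sec61gamma, Spase25, Srp9, Srp14, Srp19, Sec61beta and Sec13, but not Srp68. Sec24AB was higher in 9 of 10 classes, where 9.1% of all genes were higher in at least 9. All 6 proteins of the signal recognition particle were lower at day 3 in progenitors, with a median of -0.25, and so were all 6 in EC-like cells, with a median of -0.17 (6 and 5 of 6 outside ribosomal protein genes). In enteroendocrine cells 3 of 6 were lower, but 5 of 6 outside ribosomal protein genes.

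**Figure D4:**
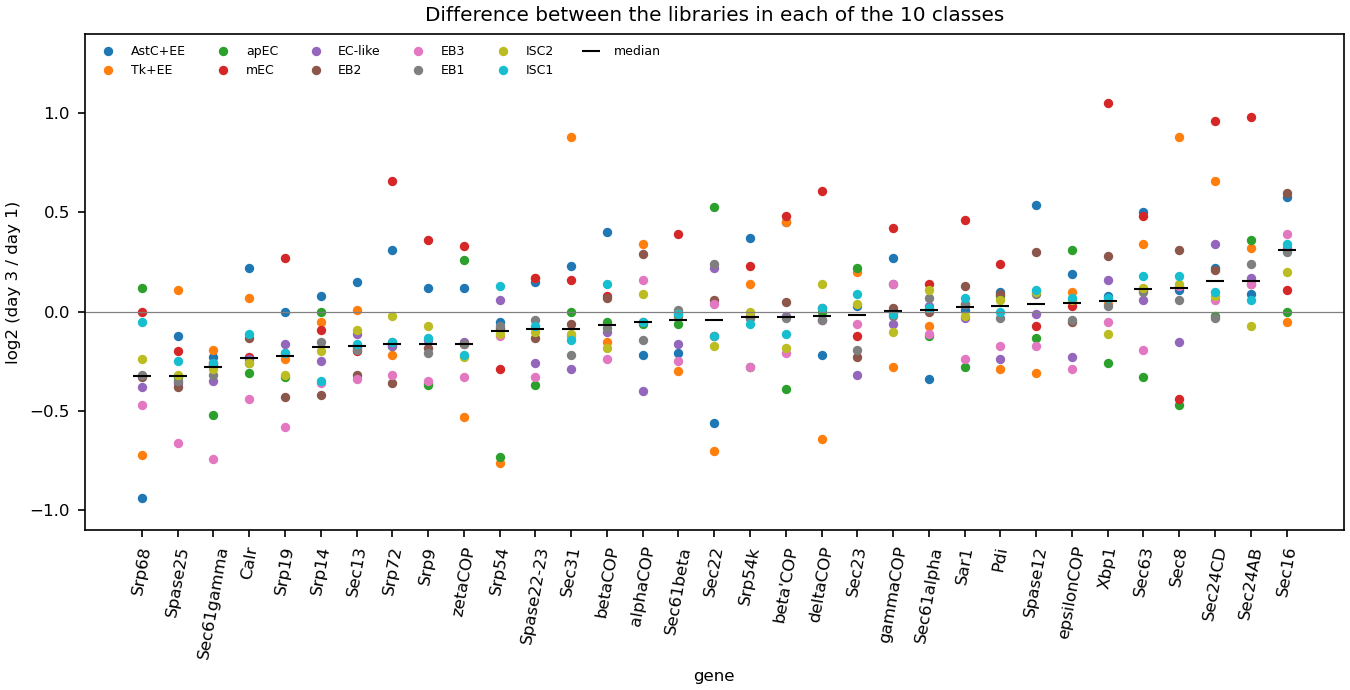
Log2 difference of day 3 over day 1 (vertical axis) of the 33 genes past the filter, ordered by their median (black bars), with 1 point for each of the 10 classes. Sec61gamma lies below 0 in every class, Srp68 and Spase25 in 9 of 10, and the widest scatter is in the enteroendocrine and enterocyte classes, which held 22 to 43 cells a library.

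The difference between the libraries moved with transcript length. Over the 33 genes, Pearson's r of the median age difference with the log10 length of the longest annotated transcript was 0.57, and over the 4470 genes past the filter with a length (94.4% of them) it was 0.40. The genes lower at day 3 in at least 9 classes had longest transcripts of 792, 1188 and 2132 bases, and Sec24AB, higher in 9, one of 4951 bases, around a median of 2132 for the 33 genes. The points share libraries and genes are not independent replicates. The part of transcript length in the age differences was not tested.

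All 40 genes matched 1 gene each in the BDGP6.54 annotation, with 7 on chromosome arm 2L, 5 on 2R, 9 on 3L, 13 on 3R and 6 on the X chromosome. Exons of 15 of them overlap a gene on the opposite strand, among them Srp14, Srp68, Spase12, Spase25, Pdi, Sec24AB and epsilonCOP. Whether the counting used strand is not given in the sources used here, so reads of such pairs may not have been told apart.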

How the data were processed

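Libraries were made with Chromium v3.1 chemistry and processed with Cell Ranger 6.0.1 on build BDGP6, per the submitters' processing notes. Values in the deposited expression table are on a natural log scale, ln(1 + n) with n a whole number, and in all 4184 cells the whole numbers sum to the deposited depth-corrected total, a score per cell. The column names are those of Seurat's SCTransform, per the file headers, while cell filters, doublet removal and annotation release are not given in the sources used here. The deposited cell table also gave UMI counts per cell, percent ribosomal columns and the authors' classes.

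Levels are means over cells per 10000 of the corrected total. Log2 differences used a pseudocount of 0.1 and genes with a mean of 0.1 or more. A class difference was called at 2-fold in the same direction in both libraries, an age difference at 1.5-fold. With 1 library an age no p-value was computed. UMI counts were rebuilt by inverting the depth correction in the 2092 cells up to the median of 28085.5 UMIs, with at most 0.478% of cells off the fitted rule for any gene described here, and given 95% exact Poisson intervals that cover counting error only. On simulated data unchanged genes were almost never called, but the corrected values understated differences, decreases above all, in shallow cells such as enteroendocrine cells, where part of the large differences put in was missed.

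All genes of the name rule may be named; wider pathway genes are named where called. The genes, their roles and the wider list were chosen with earlier results of these data known, and the comparison of EB2, the scaling without ribosomal protein genes, the unrounded inversion, the counts by sign and the highest-class counts under other settings were added after seeing the values. Python 3.11.15, numpy 2.4.6, pandas 2.3.3, scipy 1.17.1 and matplotlib 3.10.9 were used.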

Additional observations from a re-analysis of the deposited data

How the results depend on the processing

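No paired analysis was possible because each age has 1 library. No called gene changed its direction under any alternative run, while several medians over the secretory genes did. In enteroendocrine cells they were -0.18 and -0.10 outside ribosomal protein genes, and -0.06 and -0.00 for deposited log values. In cells of 5000 to 25000 UMIs the enterocyte median at day 3 was 0.02, and age medians were 0.04 in progenitors and 0.04 in enterocytes. Rebuilt UMIs gave an age median of 0.09 in enterocytes, and summed counts gave -0.02 between AstC+EE and Tk+EE at day 1. The age median in enteroendocrine cells was -0.04 outside ribosomal protein genes, against -0.07 over all genes. Across alternatives, 160 counts of genes were within 1.5 times the reported one and 44 were not. With a pseudocount of 1, no secretory gene was called between AstC+EE and Tk+EE, in EB2, or between ages in enteroendocrine cells and enterocytes (0 each). With 0.01, 1 was called in enteroendocrine cells and 4, all lower, in enterocytes against ISC1, and 3 between ages in enterocytes. A filter at 0.5 per 10000 left fewer genes: 0 called between AstC+EE and Tk+EE, in EB2 and between ages in both cell groups, 16 lower in enterocytes, 20 in EC-like cells and 20 in ISC2, 7 higher in AstC+EE and 19 in EB2. The ratio of summed counts, and leaving out the highest cell of each gene, each called 2 in enterocytes, and the second called 0 between ages there. Summed counts called 1 gene between ages in enterocytes, which was Srp54, lower at day 3, and not Sec24AB. The mean of deposited log values gave 11 higher in enteroendocrine cells and 0 calls in EB2, between AstC+EE and Tk+EE, and between ages in both cell groups. In cells of 5000 to 25000 UMIs, 1 gene was called in enteroendocrine cells (Calr), 1 in enterocytes, 0 in EB2 and 3 between ages in enterocytes, and 12 were lower in enterocytes. Rebuilt UMIs called 3 in enteroendocrine cells (Spase12, Calr and Sec16), 1 in enterocytes and 2 between AstC+EE and Tk+EE. Between ages they called 2 in progenitors, 6 in enteroendocrine cells and 7 in enterocytes, the last from 27 cells at day 3 and 29 at day 1. Counting error in so few cells may account for some of these, which was not tested. Against ISC1 they gave 17 lower in enterocytes. The unrounded inversion called 1 in enteroendocrine cells, 0 in EB2 and 2 between ages in enterocytes. Outside ribosomal protein genes, 11 were higher in enteroendocrine cells (29% of all genes) and 26 in AstC+EE (60.3% of all genes). On that scaling 12 were called lower in enterocytes and 2 were called between ages there. Equal weight for EB1, EB2 and EB3 left 11 lower in enteroblasts. Except where a share is named, these counts have no share of all genes beside them, and for rebuilt or inverted counts none exists. They show how far each result moved with the setting and are not results about the secretory genes. The causes were not tested beyond what each alternative changes. The limits are 1 library an age, 22 to 43 cells a library in the enteroendocrine and enterocyte classes, and depth that differs by class.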
